A study of Mus musculus with 2 samples.

Results

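The genes of the proteasome, the protease complex that degrades ubiquitin-tagged proteins, were examined for open chromatin at their promoters in adult mouse hippocampus. The set was every autosomal protein-coding gene of GENCODE M21 whose symbol begins with Psm, a letter from a to g and a number, which gave 49 of 20722 autosomal genes with a protein-coding transcript. DNase-seq maps DNA that the enzyme DNase I can reach and cut in nuclei, by sequencing at the cuts. The tissue came from male B6CASTF1/J mice, the F1 hybrid of the B6 and CAST strains, at 2 months of age, and the labels speak of a hippocampal layer without naming it. There was 1 untreated group of 2 samples, called replicates 1 and 2 here. They were separate biosamples with 1 donor entry, and whether they were separate animals is not stated, so the spread between them may be technical. With 1 group there was no comparison between conditions and no test over samples.

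The proteasome is a barrel-shaped core particle capped by a regulatory particle. The core is a stack of rings of alpha subunits, which gate its entrance, and beta subunits, of which the products of Psmb5, Psmb6 and Psmb7 cut proteins. In the immunoproteasome, known from immune cells and from cells exposed to interferon gamma, these are replaced by the products of Psmb8, Psmb9 and Psmb10, which favour peptides suited to MHC class I presentation. The regulatory particle has a base with a ring of ATPases that unfold the substrate, and a lid that removes ubiquitin. Dedicated chaperones assemble both particles, and other activators or an inhibitor can bind the core in place of the cap. In neurons, proteasomes take part in the turnover of synaptic proteins.

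Sequence is shown first for the promoters on which the footprint results turn. A footprint is a short stretch inside open chromatin that was cut less than its surroundings. Capitals mark bases that lay inside footprints of both replicates. All sequences are the RefSeq reference of GRCm38.p6 (the same coordinates as mm10), written 5′ to 3′ on the strand of the gene, and they do not carry the alleles of the CAST parent. Psmb2 (chr4:126677510-126677629, plus strand) had the highest promoter peak of the set. Psmb8 (chr17:34197580-34197720, plus), Psmb5 (chr14:54618023-54618140, minus) and Psmb9 (chr17:34187453-34187482, minus) encode catalytic subunits. Psmg3 (chr5:139826886-139826995, minus) had the longest stretch shared by footprints of both replicates. Psma2 (chr13:14613101-14613130, plus) had a shared footprint over an NRF1 motif that matched on both strands. The stretches of Psmb2, Psmb8, Psmb5 and Psmg3 lie upstream of the gene. The Psma2 stretch lies upstream of Psma2 in annotated UTR of its neighbour Mrpl32, and the Psmb9 stretch is 30 of the 34 bases of a footprint in UTR.
Psmb2: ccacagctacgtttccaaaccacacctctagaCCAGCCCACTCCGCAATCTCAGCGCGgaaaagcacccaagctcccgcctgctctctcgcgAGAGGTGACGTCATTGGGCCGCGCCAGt
Psmb8: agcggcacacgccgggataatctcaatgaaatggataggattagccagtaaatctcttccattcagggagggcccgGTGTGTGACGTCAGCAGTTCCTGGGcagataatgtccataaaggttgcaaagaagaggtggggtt
Psmb5: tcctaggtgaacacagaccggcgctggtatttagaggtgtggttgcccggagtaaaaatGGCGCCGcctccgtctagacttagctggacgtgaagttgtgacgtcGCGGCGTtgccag
Psmg3: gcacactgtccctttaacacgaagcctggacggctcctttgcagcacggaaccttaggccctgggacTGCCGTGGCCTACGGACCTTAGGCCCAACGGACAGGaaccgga
Psmb9: CCCTCTGTCGTCACCTGTCTCTGGGCAGAT
Psma2: cgcaggcccCTCTTGCGCATGCGCAAGGGt

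Almost every proteasome gene had an open promoter. A promoter was called open in a replicate where a peak of the longer deposited list overlapped the 500 bp on either side of any protein-coding start of the gene, and open in both where overlapping peaks of both replicates did. A peak was present at 46 of 49 members (93.9%) in replicate 1, against 64.6% of all 20722 genes. The same number of members had one in replicate 2, against 59.6% of all. A peak shared by both replicates was present at 46 members (93.9%), against 58.2% of all genes. In the shorter deposited lists, which hold stronger peaks, 44 members (89.8%) kept a shared peak, against 52.3% of all genes, and the 2 that dropped out were Psmb10 and Psmc1. Among the 38 members with no protein-coding start of another gene within 1000 bp, 35 were open in both replicates, against 53.7% of all such genes.

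The 3 closed promoters belonged to genes outside the standard particle. Psma8, an alpha subunit used in male germ cells, Psmb11, the catalytic subunit of cortical thymic epithelium, and Psme2b, a copy of the activator gene Psme2, had 0 peaks, 0 footprints and 0 intervals below an FDR of 0.05 within 500 bp of a start in either replicate. Apart from these, every alpha, beta, ATPase, base, lid and chaperone gene of the set was open in both replicates. A missing peak shows only that none was found, and in bulk tissue fewer cells with an open promoter and weaker cutting in each cell cannot be told apart.

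The labelled tissue was checked against marker genes, beside the 58.2% of all genes that were open in both replicates. All 6 neuronal markers (such as Snap25 and Map2) and 4 of 6 markers of hippocampal excitatory neurons had an open promoter in both replicates, while Slc17a7 and Prox1 had a peak in replicate 1 only. Of the glial markers, 2 of 5 astrocyte and 3 of 4 oligodendrocyte genes were open in both. None of 6 microglial genes, 4 lymphocyte genes or 3 liver genes was open in both replicates. Csf1r and Cx3cr1, both microglial, had weak peaks in replicate 1 only (heights 0.695 and 0.460). Of the markers of tissues that use the closed members, 1 of 2 thymic epithelial genes (Aire) and 1 of 3 germ cell genes (Dazl) were open in both. Replicate 1 held 132685 peaks and 255536 footprints, and replicate 2 held 59880 and 111355.

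Peak height is the authors' signal value per peak, and the height of a promoter here is that of its highest peak. Its scaling between replicates was not given in the sources used, so each height was also ranked within its replicate as the percentile among all genes with a promoter peak there. Open members had a median height of 4.75 in replicate 1 and 2.93 in replicate 2, against 4.18 and 2.53 for all open promoters. Their heights ranged over 0.551 to 11.5 in replicate 1 and 0.624 to 5.80 in replicate 2. The median percentile was 61.8 in replicate 1 and 62.8 in replicate 2, against 54.8 and 51.2 for all promoters open in both. Below percentile 25 lay 2 of 46 members (4.35%) in replicate 1 and 4 (8.70%) in replicate 2, against 17.6% and 23.5% of all open promoters. Between percentiles 50 and 75 lay 18 members (39.1%) and 17 members (37.0%), against 27.7% and 25.4% of all. Above percentile 75 lay 14 members (30.4%) in each replicate, against 27.7% and 25.5%. The plot of heights gene by gene shows this spread within each class.

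**Figure D1:**
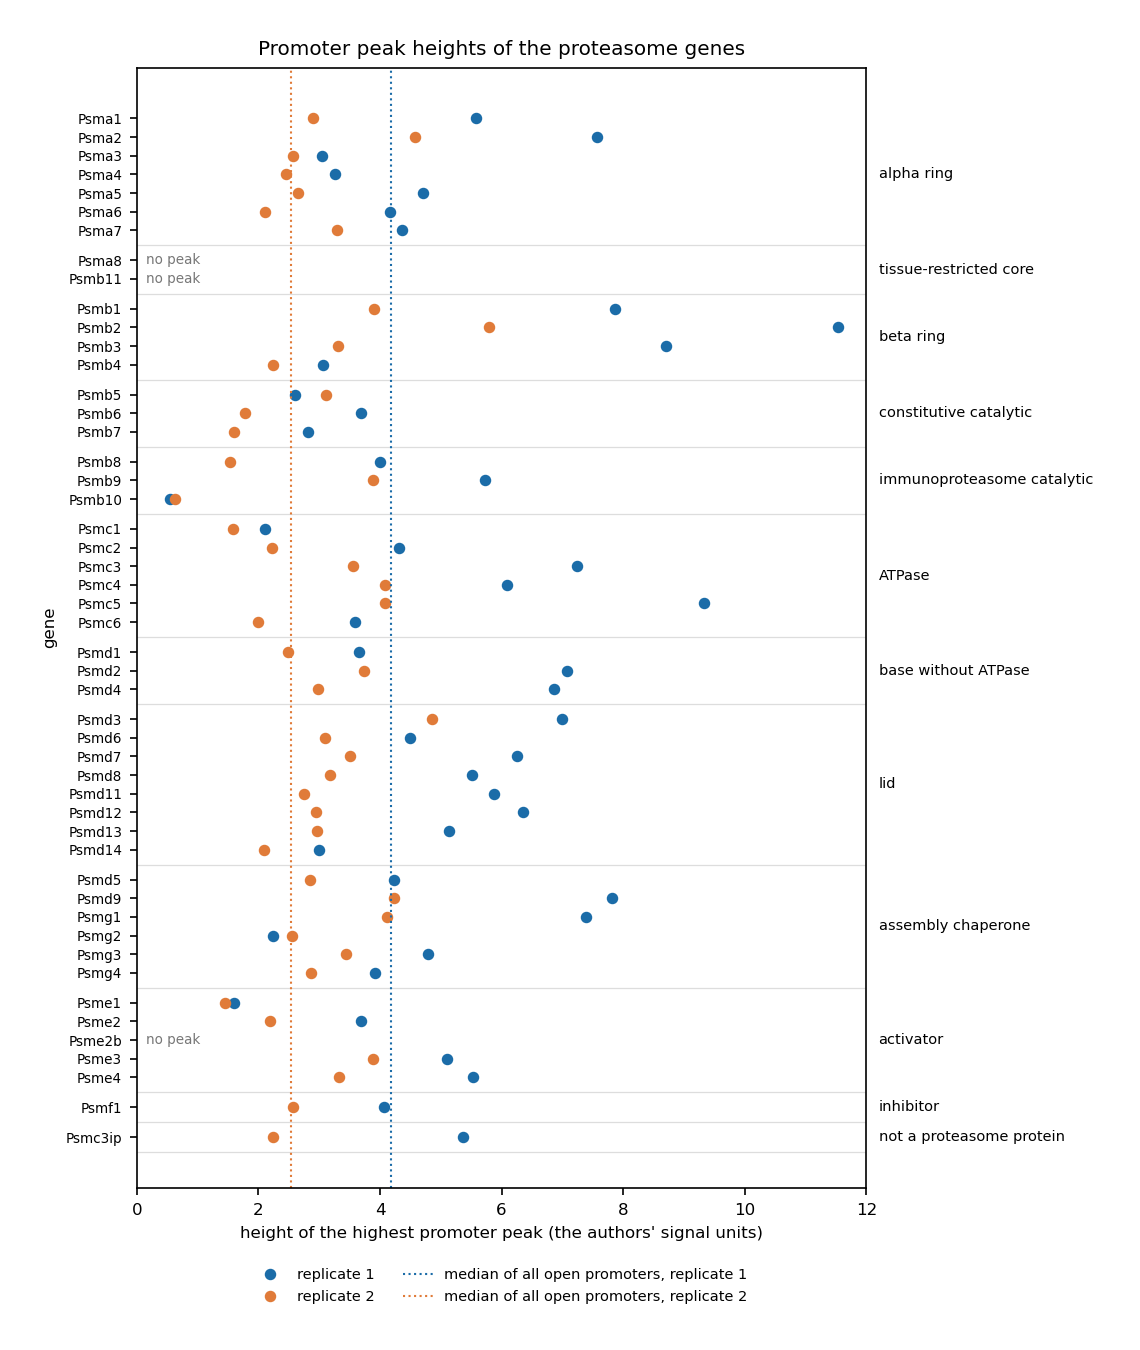
Height of the highest promoter peak (horizontal axis, the authors' signal units) for each of the 49 genes, grouped by role, with replicate 1 in blue and replicate 2 in orange. Dotted lines are the medians of all open promoters (4.18 in replicate 1, 2.53 in replicate 2); Psmb2 lies farthest right, Psmb10 farthest left, and 3 genes have no peak.

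The order of the members was similar in both replicates. Across the 46 open members log2 heights had a Pearson r of 0.87 and a Spearman rho of 0.836, beside 0.90 and 0.889 across all 12064 open promoters. These are descriptions across genes within the same 2 libraries, not across samples. Heights were lower in replicate 2, by a median log2 change against replicate 1 of -0.77 for members and -0.71 for all open promoters. The members whose percentile moved most between replicates were Psmb5, at 36.0 in replicate 1 and 68.3 in replicate 2, Psmb8, at 52.7 and 23.4, and Psmc3ip, at 69.1 and 43.1. The Psmc3ip protein is a factor of meiotic recombination and no proteasome subunit, and it was in the set by its symbol alone.

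**Figure D2:**
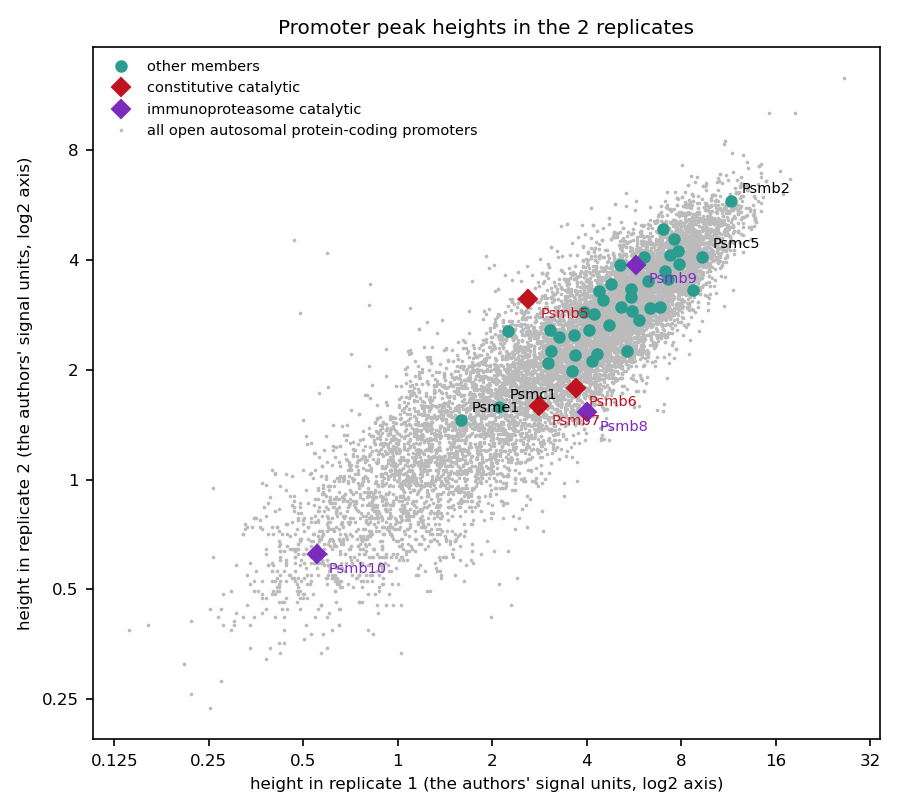
Promoter peak height in replicate 1 (horizontal) against replicate 2 (vertical), both log2 axes in the authors' signal units, for the open members (coloured) and all 12064 open autosomal promoters (grey). The members follow the grey cloud, with Psmb2 near its upper end at 11.5 and 5.80 and Psmb10 near its lower end at 0.551 and 0.624. Those Psmb10 values belong to peaks at different places in the replicates.

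All 7 alpha ring genes were open in both replicates, with heights of 3.05 to 7.57 in replicate 1 and 2.11 to 4.57 in replicate 2. Psma2 was the highest of them, with heights of 7.57 in replicate 1 and 4.57 in replicate 2, at percentiles of 88.0 and 93.8. Its start lies 75 bp from that of Mrpl32, a mitochondrial ribosomal protein gene, so the peak cannot be assigned to either gene alone. Psma4 had a neighbouring start of AY074887 at 106 bp, and Psma7 one of Ss18l1, a chromatin regulator gene, at 76 bp. The other 6 alpha genes had heights from 3.05 to 5.58 in replicate 1, and from 2.11 to 3.29 in replicate 2.

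The beta ring genes without a catalytic site included the highest promoter of the set. Psmb2 had heights of 11.5 in replicate 1 and 5.80 in replicate 2, at the 99.1 percentile in both. Psmb3 had 8.70 and 3.31, and Psmb1 had 7.87 and 3.89. Psmb4 was lower in both replicates, at 3.06 and 2.25. The Psmb1 peak (chr17:15499781-15499960 in replicate 1) lay upstream of all its annotated starts and outside the gene. It held 73 bases of annotated UTR of Tbp, which encodes the TATA-binding protein, and 133 in replicate 2. The Tbp start is 137 bp from an alternative Psmb1 start, so these heights cannot be assigned to Psmb1 alone. Psmb1 also had the most footprints by the mean of both replicates, 9 in replicate 1 and 13 in replicate 2. They were counted over the windows of its 3 annotated starts, which reach into Tbp.

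The ATPase genes spanned both ends of the range. Psmc5 was the second highest member by mean percentile, with heights of 9.33 in replicate 1 and 4.09 in replicate 2, and its start lies 75 bp from that of Ftsj3, an rRNA methyltransferase gene. Psmc1 was among the lowest, at 2.10 and 1.58, below the lower quartile of all open promoters (2.26 and 1.64) in each replicate. Psmc3 had 7.24 and 3.55, and Psmc4 had 6.09 and 4.08. For Psmc2, whose start lies 32 bp from that of the chaperone gene Dnajc2, the promoter peak of 4.31 and 2.22 was not the highest in the gene. A peak of 6.14 in replicate 1 (chr5:21786641-21786820) and 3.67 in replicate 2 (chr5:21786621-21786840) lay inside the gene. Psmc2 and Psmb10 were the 2 members for which the highest peak in the gene and its flanks lay off the promoter in both replicates.

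Of the other base genes, the scaffold gene Psmd2 had heights of 7.08 in replicate 1 and 3.74 in replicate 2, and the ubiquitin receptor gene Psmd4 had 6.86 and 2.98. The second scaffold gene, Psmd1, was lower, at 3.65 and 2.48. All 8 lid genes were open, with heights of 3.0002 to 7.0005 in replicate 1 and 2.09 to 4.85 in replicate 2. Psmd3, a structural lid subunit, was the highest, at 7.0005 and 4.85, and had the second most footprints of the set, 10 and 8. Psmd14, which encodes the deubiquitinase of the lid, was the lowest lid gene in both replicates, at 3.0002 and 2.09. Psmd13 shares its promoter region with Sirt3, a mitochondrial deacetylase gene whose start is 99 bp away.

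All 6 chaperone genes were open in both replicates. Psmd9, a chaperone of the ATPase ring, had heights of 7.81 in replicate 1 and 4.24 in replicate 2, and Psmg1, a chaperone of the alpha ring, had 7.39 and 4.12. Psmd5, Psmg3 and Psmg4 lay between 3.91 and 4.79 in replicate 1 and between 2.85 and 3.44 in replicate 2. Psmg2 was the lowest chaperone gene in both replicates, at 2.25 and 2.55, and its start lies 263 bp from that of Cep76. In replicate 1 the peak (chr18:67641221-67641440) lay wholly upstream of Psmg2, with 116 bases in annotated UTR of Cep76. In replicate 2 the peak (chr18:67641261-67641840) also covered the Psmg2 start. These heights therefore cannot be assigned to Psmg2 alone. Psmg1 and Psmg2 encode partners in a dimer, and their percentiles were 86.9 and 88.8 for Psmg1 and 31.8 and 51.8 for Psmg2.

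Among the genes for alternative regulators of the core, Psme3, the nuclear activator, had heights of 5.10 in replicate 1 and 3.88 in replicate 2, and 7 and 9 footprints. Psme4, which encodes a large single-chain activator, had 5.52 and 3.32. Psme1 and Psme2 encode the subunits of the interferon-inducible activator and were lower. Psme1 had 1.59 and 1.45, the second lowest of the open members, and Psme2 had 3.68 and 2.19. In replicate 1 the Psme2 peak (chr14:55591521-55591800) lay wholly upstream of the gene, with 93 bases in annotated UTR of Rnf31. The Rnf31 start is 595 bp from a Psme2 start. In replicate 2 the peak (chr14:55590921-55591680) reached from inside Psme2 toward Rnf31. The height of 3.68 therefore cannot be assigned to Psme2 alone. The inhibitor gene Psmf1 had 4.07 and 2.57, near the medians of all open promoters, over an alternative start inside the gene. In all, 11 members (22.4%) had a protein-coding start of another gene within 1000 bp, against 13.1% of all genes.

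The constitutive and the immunoproteasome catalytic genes did not separate by height. Psmb5, Psmb6 and Psmb7 had heights of 2.59, 3.68 and 2.82 in replicate 1, against 4.00, 5.73 and 0.551 for Psmb8, Psmb9 and Psmb10. In replicate 2 the constitutive genes had 3.12, 1.79 and 1.59, against 1.53, 3.88 and 0.624. The immunoproteasome genes thus held both the highest and the lowest of the 6 values in each replicate, and the constitutive genes lay between them. The medians were 2.82 for constitutive and 4.00 for immunoproteasome genes in replicate 1, and 1.79 and 1.53 in replicate 2. As constitutive minus immunoproteasome median log2 height the difference was -0.50 in replicate 1 and 0.23 in replicate 2, a mean of -0.14 ± 0.515 (SD, n = 2), smaller than the spread between the replicates and of opposite sign in them.

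Set beside the subunit that each replaces, the 3 pairs differed in direction. Psmb5, which carries the chymotrypsin-like site, was lower than Psmb8 by a log2 difference of -0.63 in replicate 1 and higher by 1.03 in replicate 2. Psmb6, the caspase-like subunit, was lower than Psmb9 in both replicates, with log2 differences of -0.64 and -1.12. Psmb7, the trypsin-like subunit, was higher than Psmb10 in both, with log2 differences of 2.36 and 1.35. The Psmb10 peaks behind these values lay at different places in the replicates. All 3 constitutive genes lay below the median of all open promoters in replicate 1 and 2 of them did in replicate 2. Their mean percentiles were 52.2, 39.4 and 31.8, against 38.0, 79.1 and 4.71 for Psmb8, Psmb9 and Psmb10.

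**Figure D3:**
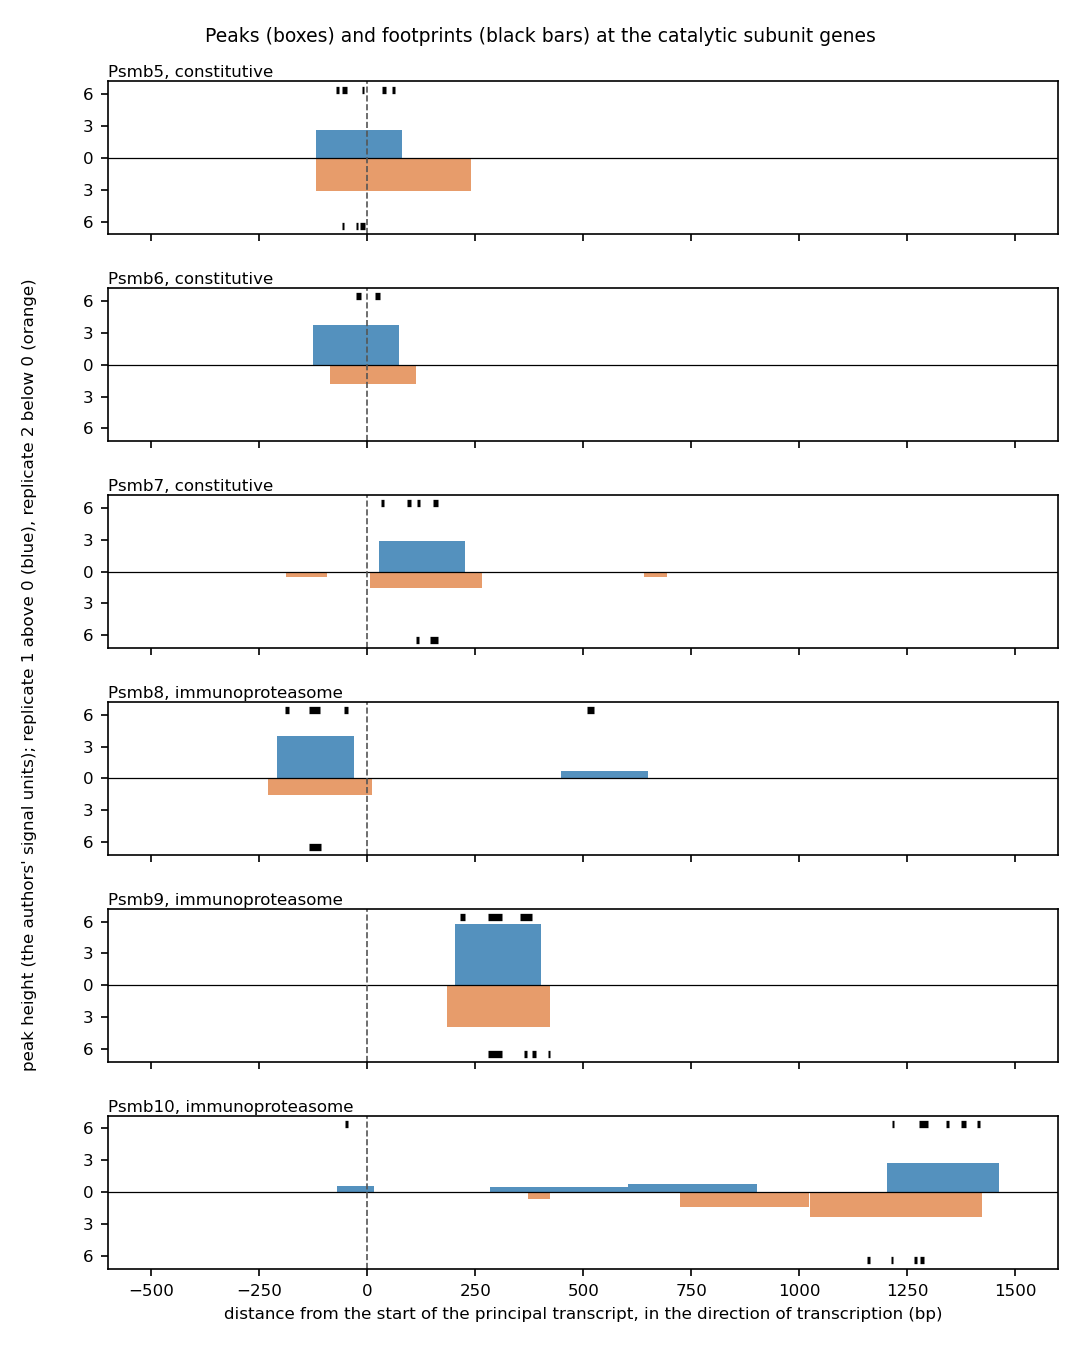
Peaks (boxes, height in the authors' signal units) and footprints (black bars) at the 3 constitutive and 3 immunoproteasome catalytic genes, by distance in bp from the start of the principal transcript, with replicate 1 above 0 in blue and replicate 2 below in orange. Psmb9 has its peak 204 to 403 bp into the gene in replicate 1, and the highest peaks of Psmb10 lie more than 1000 bp into the gene in both replicates.

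The Psmb9 peak was shared with the peptide transporter gene Tap1. The principal Psmb9 transcript starts at base 34187764 of chromosome 17, on the minus strand, and a Tap1 start lies 38 bp from a Psmb9 start. The peak covered chr17:34187361-34187560 in replicate 1 and chr17:34187341-34187580 in replicate 2, and all of it lay in annotated UTR. Both replicates had a footprint with the same ends, chr17:34187451-34187484, 34 bp long, 30 bases of which are printed above. Identical footprints made up 3 of 120 overlapping footprint pairs at members (2.50%), against 2.35% of pairs at all open promoters. Heights of 5.73 and 3.88 therefore describe Psmb9 and Tap1 together.

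Psmb8, which neighbours Psmb9 and Tap1 in the MHC region, had its own peak, upstream of the principal start at chr17:34197581-34197760 in replicate 1 and reaching over it at chr17:34197561-34197800 in replicate 2. A footprint of 26 bp in replicate 1 and one of 28 bp in replicate 2 overlapped by 25 bp, and the overlap held a complete cyclic AMP response element (CRE), TGACGTCA, beginning 129 bases before the start. Psmb8 had 3 footprints in replicate 1 and 1 in replicate 2, among the fewest of the open members.

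Psmb10 had the lowest promoter of the open set. Within 500 bp of its start, replicate 1 had a peak of 0.551 from 69 bp before to 15 bp after the start. It also had one of 0.519 at 284 to 603 bp downstream. Replicate 2 had 1 peak of 0.624, at 373 to 423 bp downstream. Only the peaks of 0.519 and 0.624 overlapped, so no peak at the start itself was shared. The heights of 0.551 and 0.624 given for Psmb10 thus belong to different sites. The lowest FDR in the window was 0.00211 in replicate 1 and 0.00961 in replicate 2. A stronger site lay inside the gene, mostly in intron, at chr8:105936981-105937240 with height 2.71 in replicate 1 and at chr8:105937021-105937420 with height 2.27 in replicate 2. It lies within 500 bp of a start of an annotated Psmb10 transcript that is not of the protein-coding type. When starts of any transcript were allowed, an alternative chosen after this peak was seen, the constitutive minus immunoproteasome difference was -0.50 in replicate 1 and -0.35 in replicate 2. The part of this site common to both replicates, chr8:105937021-105937240 on the minus strand, is printed with the bases of shared footprints in capitals.
Psmb10: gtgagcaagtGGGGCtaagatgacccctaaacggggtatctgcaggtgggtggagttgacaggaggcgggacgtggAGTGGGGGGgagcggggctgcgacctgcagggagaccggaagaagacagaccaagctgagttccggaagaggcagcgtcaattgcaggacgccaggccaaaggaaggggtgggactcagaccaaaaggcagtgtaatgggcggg

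None of the microglial or lymphocyte markers was open in both replicates, as given above, and the part of such cells in the heights of Psmb8, Psmb9 and Psmb10 was not tested. Of 11 genes of MHC class I processing and its control, 10 were open in both replicates, where 58.2% of all genes were. Their median percentile was 41.4, against 53.5 for all open promoters, and it includes Tap1 with the peak it shares with Psmb9. The class I gene H2-D1 had heights of 9.03 in replicate 1 and 2.98 in replicate 2, while Nlrc5, a transactivator of class I genes, had 0.813 and 0.710. H2-K1 had a peak in replicate 1 only.

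Footprint numbers were similar at members and at other open promoters, and the share of promoters with a footprint was higher for members in the 100 bp on either side of the start. Within 500 bp of a start the open members had a median of 5 footprints in replicate 1 and 4 in replicate 2, the same as all open promoters. A footprint overlapping one of the other replicate was present at 42 of 49 members (85.7%), against 48.0% of all genes. These shares include closed promoters, and 93.9% of members and 58.2% of all genes were open in both replicates. In the 100 bp upstream of the principal start, 91.3% of the 46 open members had a footprint in replicate 1 and 69.6% in replicate 2, against 74.3% and 61.8% of all open promoters. In the first 100 bp of the transcript the shares were 82.6% and 65.2%, against 62.2% and 53.7%. From 100 to 200 bp upstream the order turned, at 45.7% and 32.6% for members, against 51.4% and 38.0%. From 100 to 200 bp downstream members were again slightly higher, at 26.1% and 30.4%, against 22.0% and 28.4%. From 200 to 300 bp downstream they were lower, at 6.52% and 15.2%, against 14.9% and 22.2%. From 200 to 300 bp upstream the replicates differed, with 17.4% and 21.7% of members against 22.1% and 20.3%. No test was run on these shares. The plot of footprints by position gives the shares in bins of 10 bp.

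**Figure D4:**
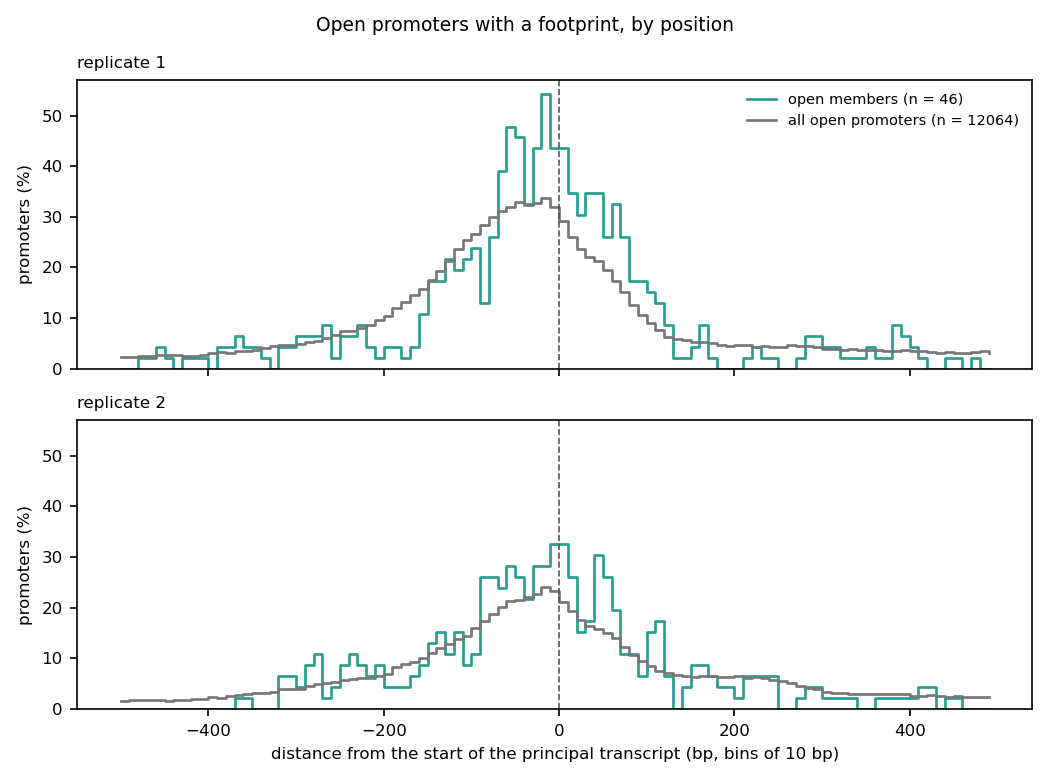
Percent of open promoters with a footprint in each 10 bp bin (vertical) by distance in bp from the start of the principal transcript (horizontal), for the 46 open members (green) and all 12064 open promoters (grey), with replicate 1 above and replicate 2 below. The member line is highest just upstream of or at the start, at 54.3% in replicate 1 and 32.6% in replicate 2, where the grey line reaches at most 33.8% and 24.1%.

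Most overlapping footprints coincided over a few bases. The median overlap was 7 bp in 120 pairs at members and 8 bp in 25321 pairs at all open promoters. An overlap of at least 20 bp was found in 9 member pairs (7.50%), against 7.32% of all pairs. The longest was the 36 bp at Psmg3, a gene for a core chaperone, printed above in capitals. It lay 43 to 8 bp upstream of the start. Psmb2 had a pair of long overlaps, 26 bp at 88 to 63 bp upstream and 27 bp at 28 to 2 bp upstream. Psmd9 had 25 bp, Psmd1 23 bp, Psmb1 22 bp (in annotated UTR of Tbp) and Psma2 20 bp. The members with fewest footprints were Psmb10 (1 in replicate 1 and 0 in replicate 2), Psmb6 (2 and 0), and, with the same mean, Psmb8 (3 and 1) and Psme1 (2 and 2).

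Promoters of 300 bases, from 250 before to 50 after the principal start, were searched for 13 short motifs by exact match on either strand. A match is a run of letters and not a bound site, and no match says only that the letters are absent from this window. The ETS motif CCGGAAG was present at 18 of 49 members (36.7%), against 11.4% of all 20722 promoters. Among open promoters the shares were 34.8% for members and 17.6% for all. It was present at 4 of 6 ATPase genes (Psmc1, Psmc2, Psmc3 and Psmc6) and 4 of 8 lid genes (Psmd6, Psmd7, Psmd11 and Psmd12), while in the core it was present at Psma6 and the closed Psma8. The remaining members with it were the base genes Psmd2 and Psmd4, the chaperone genes Psmg1 and Psmg3, and Psmc3ip. The activator genes Psme3, Psme4 and the closed Psme2b also held it. The longer YY1 motif AAGATGGCG was present at 4 open members (Psmb6, Psmc5, Psmd7 and Psmd11, 8.70%), against 3.03% of all open promoters. GC boxes (GGGCGG) were present at 60.9% of open members and 65.0% of all open promoters, and CCAAT at 34.8% and 38.1%. A match in footprints of both replicates was found at 18.8% of open members with the ETS motif, against 20.4% of all open promoters with it, and for the GC box at 32.1%, against 34.2%.

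**Figure D5:**
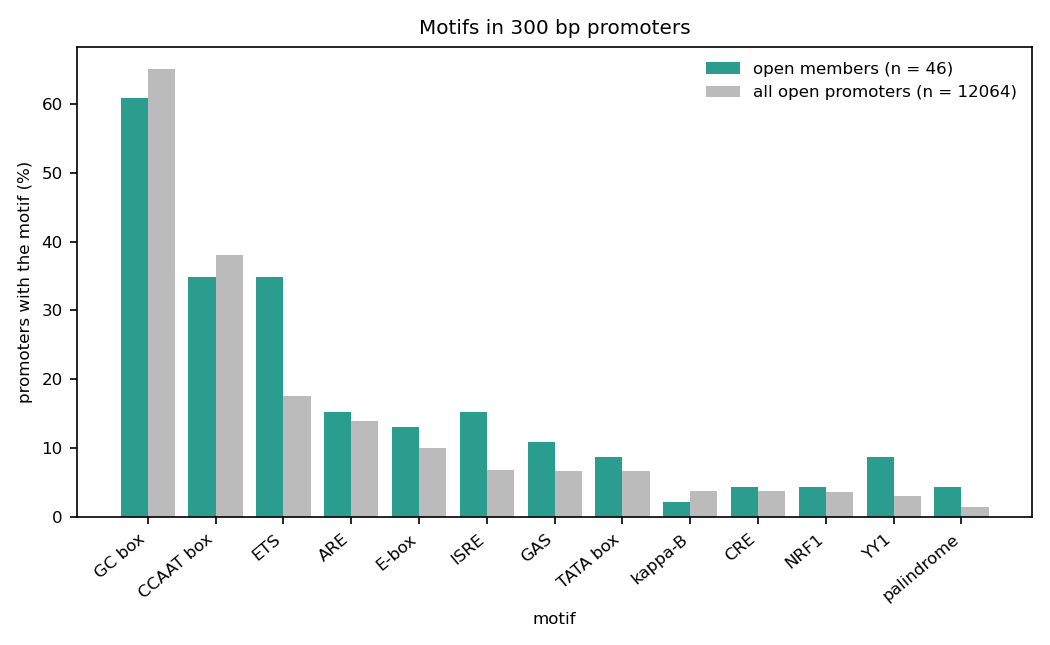
Percent of 300 bp promoters with an exact match to each of 13 motifs (vertical), for the 46 open members (green) and all 12064 open promoters (grey). The ETS bars differ most, at 34.8% and 17.6%, and the ARE bars are at 15.2% and 14.0%, a gap that widened in a window reaching 250 bases past the start (37.0% and 21.6%).

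The antioxidant response element (ARE), here TGACNNNGC, is the letters bound by Nfe2l1 and Nfe2l2; Nfe2l1 is known to raise proteasome gene transcription when proteasomes are inhibited. It was present at 7 of 49 members (14.3%), against 12.7% of all promoters. This count depended on the window: with 250 bases after the start in place of 50 the motif was at 18 members, which among open promoters was 37.0% of members against 21.6% of all. The 7 matches are printed in capitals with 10 flanking bases on each side. Whether any of them is a site of this control was not tested. Those of Psmb5 and Psmd9 overlapped footprints of both replicates, those of Psmb2 and Psmd7 a footprint of replicate 1 only, and those of Psmb6, Psmc6 and Psmd12 none. Only the Psmd9 match lay wholly inside footprints of both replicates, and the Psmb5 match met the replicate 1 footprint only at its edge. Counting any overlap of at least 1 base, a match in footprints of both replicates was found at 2 of the 7 members (28.6%). The share was 18.1% of all open promoters with the motif. In locations they are Psmb2 at chr4:126677619-126677647, Psmb5 at chr14:54618024-54618052, Psmb6 at chr11:70525338-70525366 and Psmc6 at chr14:45329587-45329615. The others are Psmd7 at chr8:107588572-107588600, Psmd12 at chr11:107479271-107479299 and Psmd9 at chr5:123228149-123228177. Psmb5 and Psmd7 are on the minus strand. A match beginning with GC is the motif on the opposite strand.
Psmb2 ARE: gccgcgccagTGACTGGGCcgtcgcgcgt
Psmb5 ARE: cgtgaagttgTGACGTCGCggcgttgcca
Psmb6 ARE: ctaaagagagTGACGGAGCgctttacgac
Psmc6 ARE: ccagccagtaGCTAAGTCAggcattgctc
Psmd7 ARE: tcaatgccaaGCTTCGTCAatagcctaag
Psmd12 ARE: gagatgttctGCTGTGTCAcatttgcccc
Psmd9 ARE: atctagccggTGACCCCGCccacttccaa

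At Psmb2 several motifs stood close together in or beside footprints. The palindrome TCTCGCGAG began 35 bases before the start, the CRE 23 bases and an inverted CCAAT box 16 bases before it, and the ARE began at the last base before it. The CRE and the CCAAT box lay inside footprints of both replicates, and the palindrome overlapped them only with its last bases. The CRE was present at 2 members, Psmb2 and Psmb8 (4.35% of open members), against 3.71% of all open promoters. In both it lay under footprints of both replicates, as at 74.7% of all open promoters with the motif. The palindrome was present at Psmb2 and Psmd5 (4.35% of open members), against 1.40% of all open promoters. The NRF1 motif GCGCATGCG was present at Psma2 and Psmg1 (4.35% of open members), against 3.61% of all open promoters. At Psma2 the overlapping copies on the 2 strands lay in the capitals printed above, 125 and 124 bases before the start.

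CCAAT matches overlapped footprints of both replicates, by at least 1 base, at 6 of 16 open members with the motif (37.5%). The share was 10.5% of all open promoters with it. These members were Psma3, Psmb2, Psmb3, Psmd4, Psme3 and Psmc3ip. The matches of Psma3, Psme3 and Psmc3ip met the replicate 2 footprint only at its edge. Those of Psme3 and Psmc3ip also met the replicate 1 footprint only at its edge. The interferon-stimulated response element, GAAANNGAA, was present at 7 members (14.3%), against 8.50% of all promoters, and at none of Psmb8, Psmb9 and Psmb10 within this window. Among open promoters its shares were 15.2% for members and 6.85% for all. A gamma-activated sequence, TTCNNNGAA, began 64 bases before the Psmb8 start and overlapped no footprint. The kappa-B motif GGGANNTTC was present at 1 member, Psme4 (2.04%), against 4.02% of all promoters. The E-box CACGTG was present at 7 members, Psmb10 among them (14.3%, against 7.81% of all promoters). The TATA box TATAAA was present at 5 members (10.2%), against 12.6% of all promoters.

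Composition differed little. The median GC content of the 300 bp promoters was 58% for open members and 61% for all open promoters, and the median CpG observed over expected ratio was 0.787 and 0.773. Highest promoter peaks had median widths of 200 bp in replicate 1 and 280 bp in replicate 2 at members, against 220 and 300 bp at all open promoters.

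Genes that work with the proteasome under other symbols were open as well. Beside these lists, 58.2% of all genes were open in both replicates, and the median percentile of all open promoters was 53.5. All 10 partner genes found were open in both replicates, with a median percentile of 85.6. The ubiquitin receptor gene Adrm1 had heights of 8.34 in replicate 1 and 4.45 in replicate 2, and the proteasome deubiquitinase gene Uchl5 had 9.85 and 4.20, while Ecpas, a proteasome adaptor gene, had 1.68 and 1.66. All 4 genes of the transcriptional control were open, with Nfe2l1 at 5.58 and 2.89, its protease gene Ddi2 at 5.03 and 3.25, its deglycosylase gene Ngly1 at 2.98 and 2.55, and Nfe2l2 at 2.51 and 0.990. All 8 genes for ubiquitin and for delivery of substrates were open, with a median percentile of 75.4, led by the shuttle factor gene Rad23b at 12.9 and 6.21. These lists share the libraries with the members and were not tested against them.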

How the data were processed

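DNase-seq libraries of 2 replicates were analysed from the files the authors deposited on mm10, per the labels. Per the file headers and readme texts, the authors derived peaks, each with a height (a signal value), from the alignments of each library separately, and deposited 2 peak lists per replicate. They also deposited footprints, and the FDR of the cut rate per interval, which was read as a q-value that the authors computed and deposited. The footprint lists carried the constant 0.01 in place of a p-value, so footprints were used by position. The scaling of heights, the aligner, the callers and the depth were not given in the sources used. In the longer lists the lower heights were whole multiples, within 0.02 steps, of a step of 0.00535 in replicate 1 and 0.0108 in replicate 2. Both parental alleles were pooled.

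The longer list of each replicate was used. Starts were those of protein-coding transcripts of GENCODE M21 on the 19 autosomes, and positions relative to a start refer to the APPRIS principal transcript. Percentiles were ranks among all genes with a promoter peak in a replicate. The scripts (Python 3.11.15, pandas 2.3.3, numpy 2.4.6, pysam 0.24.0) were tested on planted peaks. Members, gene lists and motifs were chosen with earlier results of these data known. Genes were named by rule: the 6 catalytic genes, closed members, the 5 highest and 5 lowest open members, the 3 with most and 3 with fewest footprints, the 3 largest replicate differences, the top of each class, and members with a neighbouring start; others were named after their values were seen. Matches counted as in a footprint where at least 1 base overlapped. Paaf1 was not matched by symbol. Alternatives changed the peak list, window, starts, overlap rule, replicates, members and promoter length. With 2 samples in 1 group no p-value was computed.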

Additional observations from a re-analysis of the deposited data

How the results depend on the processing

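No paired analysis was possible because the series holds 1 group. The count of 46 open members ranged over 40 to 46 under the alternatives that kept all 49 members. It was 40 with 50% reciprocal overlap of the replicates' peaks, which dropped Psma3, Psma6, Psmb10, Psmd6, Psmd8 and Psmd14 and left 44.7% of all genes open. The median percentile of 64.1 became 61.7 in the shorter lists, 65.0 with a window of 200 bp, 62.4 with the peak nearest to a start and 65.0 over symbols that match the rule to their end, and 61.8 to 62.8 with 1 replicate left out. The catalytic difference of -0.14 reversed to 0.23 without replicate 1 and was -0.50 without replicate 2. It kept its sign at -0.60 in the shorter lists, where Psmb10 had no peak, at -0.48 with 200 bp, where Psmb10 had none in replicate 2, and at -0.42 with starts of any transcript, chosen after seeing the data. The median of 4.5 footprints (5 for all open promoters) became 2 when only footprints found in both replicates were counted (2 for all open promoters). With 250 bases after the start, ARE matches were at 18 of 49 members (36.7%) in place of 7, against 4142 of 20722 genes, and ISRE matches at 12 (24.5%) in place of 7, against 12.6% of all genes. The causes were not tested. The depth is unknown, and replicate 2 had fewer peaks and footprints than replicate 1. Psmb10 and Psmc1 had no shared peak in the shorter lists.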
